A study of Homo sapiens with 6 samples.

Results

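The genes described here are 10 alpha and beta tubulin isotypes, 4 alpha (TUBA1A, TUBA1B, TUBA1C and TUBA4A) and 6 beta (TUBB, TUBB2A, TUBB2B, TUBB3, TUBB4B and TUBB6), among the 15953 genes measured. They were chosen by family, and the family was chosen from these same data because TUBA1A falls strongly after STIL knockdown. All 10 were in the table. EJ, a human cell line established from bladder cancer, was profiled by RNA-seq as 2 groups with 3 libraries each. The shSTIL cells carried a lentiviral short hairpin RNA against STIL, a gene needed for centriole duplication, and the shNC cells carried a control hairpin. Both were stable lines made from EJ cells, and the column headings of the tables call them siSTIL and siNC. The labels give neither the number of hairpins nor whether the 3 libraries of a group came from separate cultures, so P-values here measure only the spread between these libraries. Depth was 16214772 to 16431243 reads in the shNC libraries and 16734469 to 16901634 reads in the shSTIL libraries. The comparison of the groups asks how the transcriptome of EJ cells differs when STIL is knocked down.

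Alpha and beta tubulin form the heterodimers that polymerise into microtubules, the filaments of the mitotic spindle, the centriole and the axoneme of the cilium. Humans carry several genes of each kind, whose proteins are close to identical over the body of the molecule and differ mainly in the acidic tail at the end, where most enzymes that modify tubulin act. Cells also adjust tubulin mRNA to the pool of free tubulin: when free dimers are in excess, TTC5 binds the first residues of the tubulin chain as it leaves the ribosome, and the mRNA is degraded through SCAPER and the CCR4-NOT complex.

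The start of the coding sequence is shown because it encodes those first residues. Each sequence was read from the GENCODE 29 reference transcript of the gene (GRCh38), and the capitals mark the first 4 codons of the 30 bases.
TUBA1A: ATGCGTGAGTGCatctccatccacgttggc
TUBA1B: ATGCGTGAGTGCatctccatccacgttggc
TUBA1C: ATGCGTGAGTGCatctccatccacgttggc
TUBA4A: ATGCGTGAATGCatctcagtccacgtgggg
TUBB: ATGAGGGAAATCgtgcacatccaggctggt
TUBB2A: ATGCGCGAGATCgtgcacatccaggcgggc
TUBB2B: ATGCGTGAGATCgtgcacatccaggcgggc
TUBB3: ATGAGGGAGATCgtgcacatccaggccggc
TUBB4B: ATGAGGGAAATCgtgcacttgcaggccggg
TUBB6: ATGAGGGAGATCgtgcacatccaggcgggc

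The 3 genes TUBA1A, TUBA1B and TUBA1C shared these 30 bases, and the isotypes of each kind encoded the same 4 residues. Among the 15481 measured genes with a coding start in this annotation, 16 opened with the alpha or the beta version of these 4 residues. All 16 were tubulin genes, namely the 10 isotypes and TUBA3D, TUBA3E, TUBA8, TUBB1, TUBB4A and TUBB8.

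STIL, the targeted gene, was reduced in every shSTIL library. Its level in log2 CPM (reads of the gene scaled to the size of the library, as log2) was 5.98, 6.10 and 6.01 in the shNC libraries and 4.05, 4.06 and 4.01 in the shSTIL libraries. The fitted log2 fold change, with its standard error (SE), was -1.99 (limma, SE 0.05, adjusted p = 6.1e-12), and p was 0.1 in an exact permutation test (two-sided), which cannot give a smaller p with 3 against 3 libraries.

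The cells were checked against markers of the labelled tissue and of other cell types. Of the general epithelial markers, 5 of 6 were in the table and summed to 1109.9 ± 33.0 CPM (SD, n = 3) in shNC and 979 ± 17.1 CPM in shSTIL libraries, while CDH1 lay under 0.5 CPM. The keratins among them were abundant and did not move together: KRT18 was at 639.8 CPM in shNC and 618 CPM in shSTIL libraries, KRT8 at 378 and 233 CPM, and KRT7 at 90.8 and 128 CPM. Markers of urothelial differentiation were scarce: the 9 of 11 in the table summed to 33.7 ± 1.08 CPM in shNC and 32.8 ± 0.417 CPM in shSTIL libraries, led by PPARG, and UPK2, KRT20, GATA3 and KRT5 lay under 0.5 CPM. Of the neuronal markers, which matter here because TUBB3 is used to mark neurons, 5 of 8 were in the table and summed to 4.74 ± 0.79 CPM in shNC and 3.76 ± 0.857 CPM in shSTIL libraries, nearly all of it SYP. RBFOX3, NEFL, ELAVL3 and INA lay under 0.5 CPM on average, so TUBB3 was measured in cells where 4 of these 5 markers were near 0. The mesenchymal markers summed to 1582 ± 20.6 CPM in shNC and 978 ± 9.68 CPM in shSTIL libraries, led by VIM, and the immune and endothelial markers in the table summed to 12.02 ± 0.569 CPM in shNC and 14.1 ± 1.13 CPM in shSTIL libraries, led by CD68.

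The alpha isotypes were all lower in STIL-knockdown cells. TUBA1A, an isotype abundant in developing neurons, lies on chromosome 12 (chr12:49184796-49189324, minus strand). The log2 CPM of TUBA1A was 8.46, 8.45 and 8.48 in the shNC libraries and 6.21, 6.31 and 6.20 in the shSTIL libraries. These values rest on 5628, 5690 and 5690 reads in the shNC and 1265, 1360 and 1244 reads in the shSTIL libraries. Every shSTIL library lay at least 2.14 log2 units below every shNC library. The log2 difference was -2.22 (SE 0.04), which left 21.4% of the control CPM, and 21 of the 15953 genes had a larger fall. TUBA1A was selected on this fall, so no test is given for it. In bulk RNA, fewer cells that express a gene and less RNA per cell cannot be told apart.

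TUBA1B, the main alpha isotype of dividing cells, lies in the same cluster (chr12:49127782-49131395, minus strand). In log2 CPM it was 11.52, 11.44 and 11.50 in the shNC libraries and 10.08, 10.16 and 10.14 in the shSTIL libraries. The difference was -1.36 (SE 0.04). TUBA1C, the third alpha gene of the cluster (chr12:49264907-49274603, plus strand), had a log2 CPM of 9.72, 9.67 and 9.72 in the shNC libraries and 8.80, 8.83 and 8.84 in the shSTIL libraries. Its difference was -0.88 (SE 0.03), so the 3 neighbouring genes moved in the same direction by unequal amounts. TUBA4A, the isotype on chromosome 2 (chr2:219249711-219254032, minus strand), was far less abundant. Its log2 CPM was 3.78, 3.74 and 3.69 in the shNC libraries and 2.65, 2.62 and 2.78 in the shSTIL libraries. The difference was -1.05 (SE 0.10), from 204 to 218 reads a library in shNC and 103 to 115 in shSTIL. The shNC and shSTIL values did not overlap for any of the 4 alpha isotypes, where 30.5% of all genes were apart and lower.

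**Figure D1:**
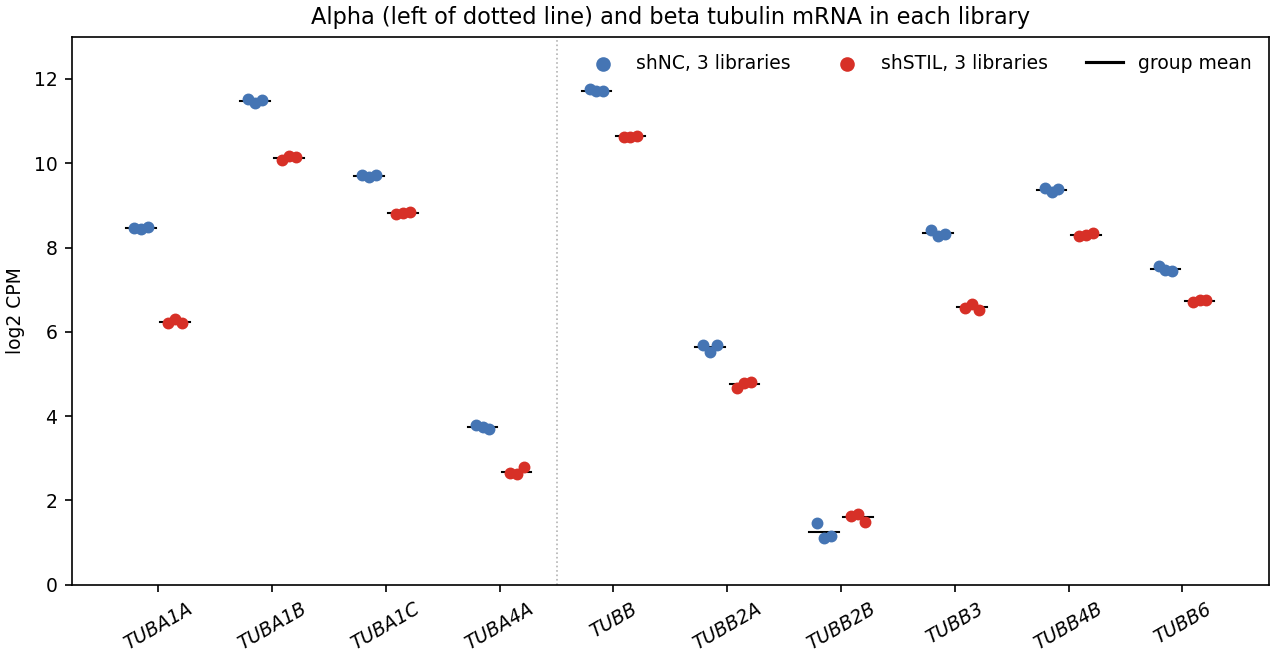
Level of each alpha and beta tubulin isotype in log2 CPM (y axis) in the 3 shNC (blue) and 3 shSTIL (red) libraries, with a line at each group mean. The shSTIL points lie below the shNC points for 9 isotypes, with TUBA1A furthest apart, and above them for TUBB2B, which has the lowest level.

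Of the 6 beta isotypes, 5 were lower in STIL-knockdown cells. TUBB, the main beta isotype of most dividing cells (chr6:30720201-30725426, plus strand), had a log2 CPM of 11.75, 11.71 and 11.72 in the shNC libraries and 10.62, 10.63 and 10.65 in the shSTIL libraries. The difference was -1.09 (SE 0.03). TUBB4B, a widely expressed isotype also found in cilia (chr9:137241213-137243707, plus strand), had a log2 CPM of 9.42, 9.31 and 9.38 in the shNC libraries and 8.28, 8.30 and 8.33 in the shSTIL libraries. Its difference of -1.06 (SE 0.03) was within 1 standard error of that of TUBB. TUBB3, the isotype known from neurons and from many tumours (chr16:89923279-89936097, plus strand), had a log2 CPM of 8.41, 8.28 and 8.31 in the shNC libraries and 6.56, 6.67 and 6.52 in the shSTIL libraries. The difference was -1.75 (SE 0.04), the largest among these 6 beta isotypes, and 29.7% of the control CPM was left.

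TUBB6, a widely expressed beta isotype (chr18:12308059-12326619, plus strand), had the smallest fall of the 9. Its log2 CPM was 7.56, 7.47 and 7.44 in the shNC libraries and 6.70, 6.75 and 6.76 in the shSTIL libraries, a difference of -0.75 (SE 0.04). The pair TUBB2A (chr6:3153669-3157526, minus strand) and TUBB2B (chr6:3224261-3227735, minus strand) did not move together. TUBB2A had a log2 CPM of 5.70, 5.51 and 5.69 in the shNC libraries and 4.68, 4.78 and 4.80 in the shSTIL libraries, a difference of -0.88 (SE 0.06). TUBB2B had a log2 CPM of 1.46, 1.11 and 1.16 in the shNC libraries and 1.63, 1.67 and 1.497 in the shSTIL libraries, a difference of 0.36 (SE 0.17). Its groups were 0.04 log2 units apart and it had 33 to 42 reads in shNC and 46 to 53 reads in shSTIL libraries, so the depth behind it is low and the fit did not call it.

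Read as calls, limma placed 9 of the 10 isotypes lower and 0 higher in shSTIL cells at an adjusted p under 0.01, where 23.6% of all genes were lower and 23.5% higher. By the overlap of libraries, 9 were apart and lower and 1 was apart and higher, against 30.5% and 29.9% of all genes. The family was chosen from this contrast, so nothing is read from these counts. The mean log2 CPM was 1 or more for all 10 isotypes. The median log2 fold change was -1.06 over the isotypes and 0.01 over all genes.

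**Figure D2:**
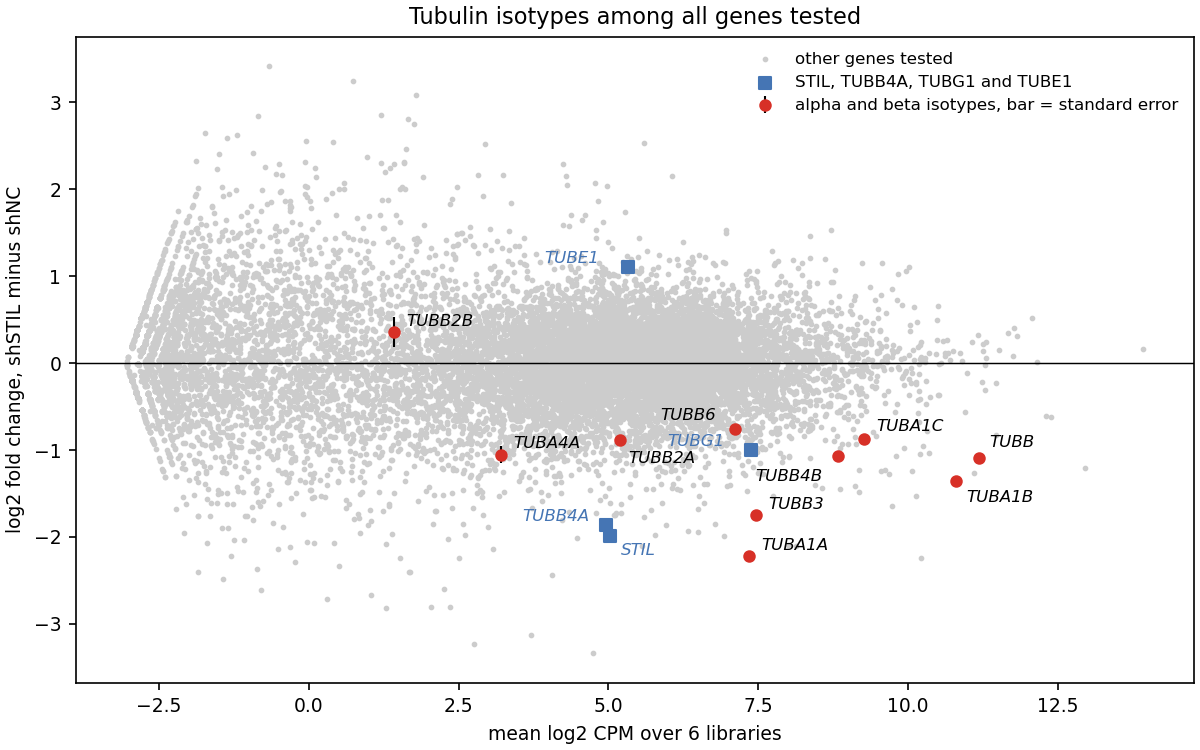
Log2 fold change of shSTIL against shNC (y axis) by mean log2 CPM over the 6 libraries (x axis) for all 15953 genes (grey), with the isotypes in red (bars, standard error) and STIL, TUBB4A, TUBG1 and TUBE1 as blue squares. The isotypes run from -2.22 for TUBA1A to 0.36 for TUBB2B, and 9 of 10 lie below 0.

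The isotypes share much of their sequence, and the authors' counting could split reads between them. Coding sequences were 98.1% identical between TUBB2A and TUBB2B, 97.2% between TUBA1A and TUBA1B, 96.8% between TUBA1B and TUBA1C, and 95.9% between TUBA1A and TUBA1C. Identity of the other pairs within a kind was 81.0% to 87.7%, and between alpha and beta isotypes 54.9% to 57.6%. The read length is not given in the sources used here, so shared stretches were counted in windows of 50 and of 100 bases. Of the windows of the TUBA1A transcript, 40.9% at 50 bases and 18.3% at 100 bases also occurred in a transcript of another alpha or beta tubulin gene. These shares were 56.6% and 32.1% for TUBA1B, 25.1% and 11.5% for TUBA1C, 60.3% and 54.4% for TUBB2A, and 47.3% and 42.4% for TUBB2B. They were at most 9.89% and 5.15% for the others. The separate values of TUBA1A, TUBA1B and TUBA1C, and of TUBB2A and TUBB2B, are therefore uncertain where reads fell in shared windows. A sum over each such group is not touched by a split within it, but reads of other isotypes could still enter it. At 50 bases, 9.89% of the windows of TUBB4B and 8.84% of those of TUBB3 were shared. For both, TUBB2A was the single gene that shared the largest number. In shNC libraries TUBB4B was at 662 CPM and TUBB3 at 323 CPM. TUBA1A, TUBA1B and TUBA1C together gave 4049.9 ± 99.4 CPM (SD, n = 3) in shNC and 1647 ± 39.9 CPM in shSTIL libraries, a log2 difference of -1.30 (SE 0.03). TUBB2A and TUBB2B together gave 51.8 ± 3.70 CPM in shNC and 29.7 ± 1.13 CPM in shSTIL libraries, a log2 difference of -0.80 (SE 0.07). Both sums were lower in each shSTIL library than in each shNC library.

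Together the 10 isotypes took up a smaller part of the reads after STIL knockdown. They summed to 8852, 8459 and 8676 CPM in the shNC libraries and to 3722, 3827 and 3828 CPM in the shSTIL libraries, so 43.8% of the control sum was left. The alpha isotypes summed to 4063 ± 99.4 CPM in shNC and 1654 ± 39.99 CPM in shSTIL libraries, a log2 difference of -1.30 (SE 0.03). The 6 beta isotypes, which leave out TUBB4A, summed to 4599 ± 104 CPM in shNC and 2139 ± 23.6 CPM in shSTIL libraries, a log2 difference of -1.10 (SE 0.02). The alpha sum thus fell more than the beta sum, and the ratio of alpha to beta CPM was 0.878, 0.876 and 0.896 in the shNC libraries and 0.761, 0.786 and 0.772 in the shSTIL libraries.

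Levels of different isotypes were compared as CPM per kilobase of reference transcript. In shNC cells the order was TUBA1B (1760.2 ± 49.3), TUBB (1267 ± 20.5), TUBB4B (404 ± 15.8), TUBA1C (278 ± 5.77), TUBA1A (184 ± 2.36), TUBB3 (182 ± 8.85), TUBB6 (87.0 ± 4.05), TUBB2A (31.1 ± 2.18), TUBA4A (6.11 ± 0.185) and TUBB2B (1.12 ± 0.16). TUBA1A and TUBB3 did not differ beyond their spread, and all other neighbours in this order were apart in the 3 libraries. In shSTIL cells TUBA1A fell from place 5 to place 7, at 39.4 ± 1.64, behind TUBB3 (54.2 ± 2.95) and TUBB6 (51.5 ± 1.18), whose values overlapped. The 4 most abundant and the 3 least abundant isotypes kept their places.

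Because the falls were unequal, the makeup of each pool shifted, a pool being the 4 alpha or the 6 beta isotypes described here. TUBB4A, a beta isotype with a mean log2 CPM of 5.89 in shNC libraries, is not in the beta pool. Of the alpha reads per length, TUBA1A made up 8.26 ± 0.181% in shNC and 4.47 ± 0.145% in shSTIL libraries. TUBA1C made up 12.5 ± 0.0698% in shNC and 17.2 ± 0.289% in shSTIL libraries, against 20.5% and 27.4% when shares were counted by reads. TUBA1B remained the bulk of the alpha pool at 79.0 ± 0.252% in shNC and 78.0 ± 0.277% in shSTIL libraries. The shares of TUBA1C and TUBA4A were higher, and the shares of TUBA1A and TUBA1B lower, in every shSTIL library than in every shNC library. Of the beta reads per length, TUBB3 made up 9.24 ± 0.22% in shNC and 5.94 ± 0.334% in shSTIL libraries. Per length, the share of each of the other 5 beta isotypes was higher in every shSTIL library than in every shNC library, but that of TUBB only narrowly, and its groups overlapped when shares were counted by reads. TUBB6 made up 4.41 ± 0.13% in shNC and 5.64 ± 0.0643% in shSTIL libraries, and TUBB made up 64.2 ± 0.595% in shNC and 65.3 ± 0.305% in shSTIL libraries. TUBB2A made up 1.57 ± 0.0826% in shNC and 1.84 ± 0.0611% in shSTIL libraries. TUBB2B, the only one of the 10 isotypes whose level was not lower, made up 0.0565% in shNC and 0.158% in shSTIL libraries.

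**Figure D3:**
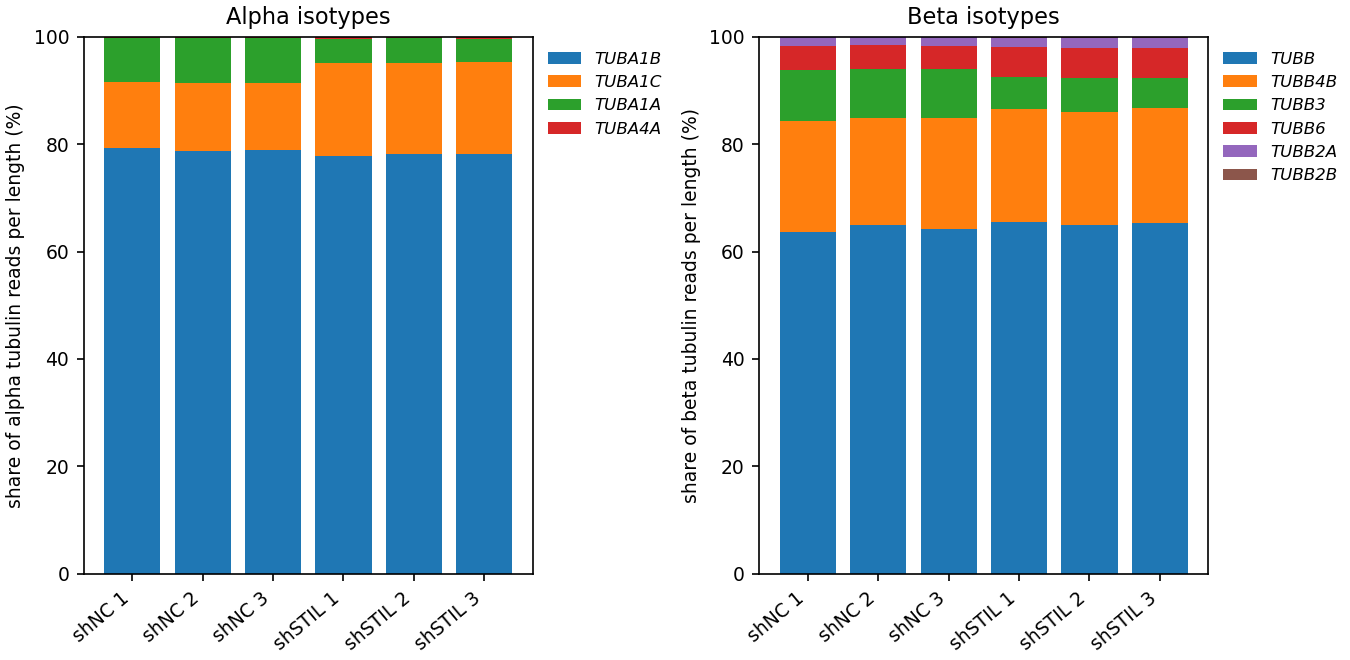
Share of each isotype in the summed reads per length of the 4 alpha (left) and the 6 beta (right) isotypes (y axis, percent) in each of the 6 libraries (bars). TUBA1A narrows from 8.26% to 4.47% of the alpha pool and TUBB3 from 9.24% to 5.94% of the beta pool, while TUBB and TUBA1B make up most of their pools in every library.

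Other members of the tubulin superfamily were also measured. Of the 12 listed, 10 were in the table, of which 2 were lower, 2 higher and 6 not called, near the 23.6% lower and 23.5% higher of all genes, with a median log2 fold change of 0.08. TUBB4A, a beta isotype of brain that is not among the 10, fell by 1.86 (limma, SE 0.07, adjusted p = 2.0e-10). Its log2 CPM was 5.99, 5.88 and 5.79 in the shNC libraries and 4.16, 3.89 and 4.04 in the shSTIL libraries. TUBG1, the gamma tubulin that nucleates microtubules, fell by 1.00 (limma, SE 0.03, adjusted p = 6.3e-11), whereas TUBE1, the epsilon tubulin of centrioles, rose by 1.11 (limma, SE 0.05, adjusted p = 9.1e-10). Of the 16 genes that open with the alpha or the beta version of the 4 residues, 10 are the isotypes chosen from this contrast. Among the other 6, 1 was lower (TUBB4A), 1 was higher (TUBB1, at a mean log2 CPM of -0.12) and 4 had low levels and were not called.

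The genes of tubulin folding were lower more often than higher. Of 22, which are subunits of the chaperonin CCT and of prefoldin, the tubulin cofactors with the related TBCEL, the GTPase ARL2 and the phosducin-like PDCL3, 14 were lower and 4 higher, where 23.6% of all genes were lower and 23.5% higher. Their median log2 fold change was -0.30. Without shSTIL replicate 3 these 18 calls became 11, of which 9 were lower and 2 higher. Over all 15953 genes the same omission took 7509 calls to 4900, of which 2500 were lower and 2400 higher. CCT3, a subunit of the chaperonin, fell by 0.77 on the log2 scale (limma, SE 0.03, adjusted p = 6.8e-10). Prefoldin, which hands the nascent chains over, was split: PFDN6 fell by 0.91 (limma, SE 0.06, adjusted p = 2.0e-08), while PFDN1 rose by 0.56 (limma, SE 0.04, adjusted p = 1.9e-08) and PFDN2 by 0.47 (limma, SE 0.05, adjusted p = 3.6e-06).

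The factors of tubulin mRNA autoregulation moved little and in both directions. Of 12, 4 were lower and 5 higher, against 23.6% and 23.5% of all genes, with a median log2 fold change of 0.05. Leaving out any 1 of the 6 libraries reduced these 9 calls to between 2 and 5. A fit with no mean-variance trend reduced them to 3. Over all 15953 genes these changes took 7509 calls to between 4900 and 5638, and to 5855 with no trend. TTC5, which recognises the nascent tubulin chain, had a log2 CPM of 3.88, 3.99 and 3.97 in the shNC libraries and 3.65, 3.48 and 3.79 in the shSTIL libraries. The change of -0.31 on the log2 scale (limma, SE 0.09, adjusted p = 0.0099) lay at the threshold, and it was called in 4 of 14 alternative settings, in which its adjusted p ran from 0.0022 to 0.078. SCAPER, the adaptor, rose by 0.30 on the log2 scale (limma, SE 0.07, adjusted p = 0.0026), which 8 of 14 settings called. Of the CCR4-NOT subunits, CNOT8 fell by 0.38 (limma, SE 0.04, adjusted p = 3.5e-06) and CNOT6L rose by 0.43 (limma, SE 0.06, adjusted p = 4.6e-05, called in 10 of 14 settings).

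Of the 22 measured genes of tubulin modification, which are enzymes and their partner subunits, 9 were lower and 5 higher. This compares with 23.6% and 23.5% of all genes, and the median log2 fold change of the list was -0.20. With 1 library left out, 7 or 8 were lower and 2 to 4 higher, where calls over all genes went from 7509 to between 4900 and 5638. TTL, the tubulin tyrosine ligase, fell by 0.65 (limma, SE 0.04, adjusted p = 1.0e-08), and TTLL7, a glutamylase of beta tubulin tails, fell by 0.92 (limma, SE 0.07, adjusted p = 9.6e-08). The deacetylase SIRT2 rose by 0.34 (limma, SE 0.06, adjusted p = 0.00017) and the deglutamylase AGTPBP1 by 0.32 (limma, SE 0.06, adjusted p = 0.00042), each called in 9 of 14 settings. The largest changes of this list lay at a mean log2 CPM under 3. VASH2 fell by 1.67 (limma, SE 0.15, adjusted p = 6.3e-07) and TTLL11 rose by 1.62 (limma, SE 0.27, adjusted p = 0.00015). Of the 31 measured microtubule-associated, plus-end, severing and destabilising proteins, 16 were lower and 6 higher, against the same shares of all genes, with a median of -0.24. MAPRE2, an end-binding protein, fell by 1.05 (limma, SE 0.06, adjusted p = 7.3e-09), and FIGNL1, of the fidgetin family, fell by 0.96 (limma, SE 0.07, adjusted p = 4.0e-08). CLIP1, a plus-end linker, rose by 0.80 (limma, SE 0.04, adjusted p = 1.3e-09), and the severing enzyme SPAST rose by 0.42 (limma, SE 0.06, adjusted p = 4.8e-05).

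**Figure D4:**
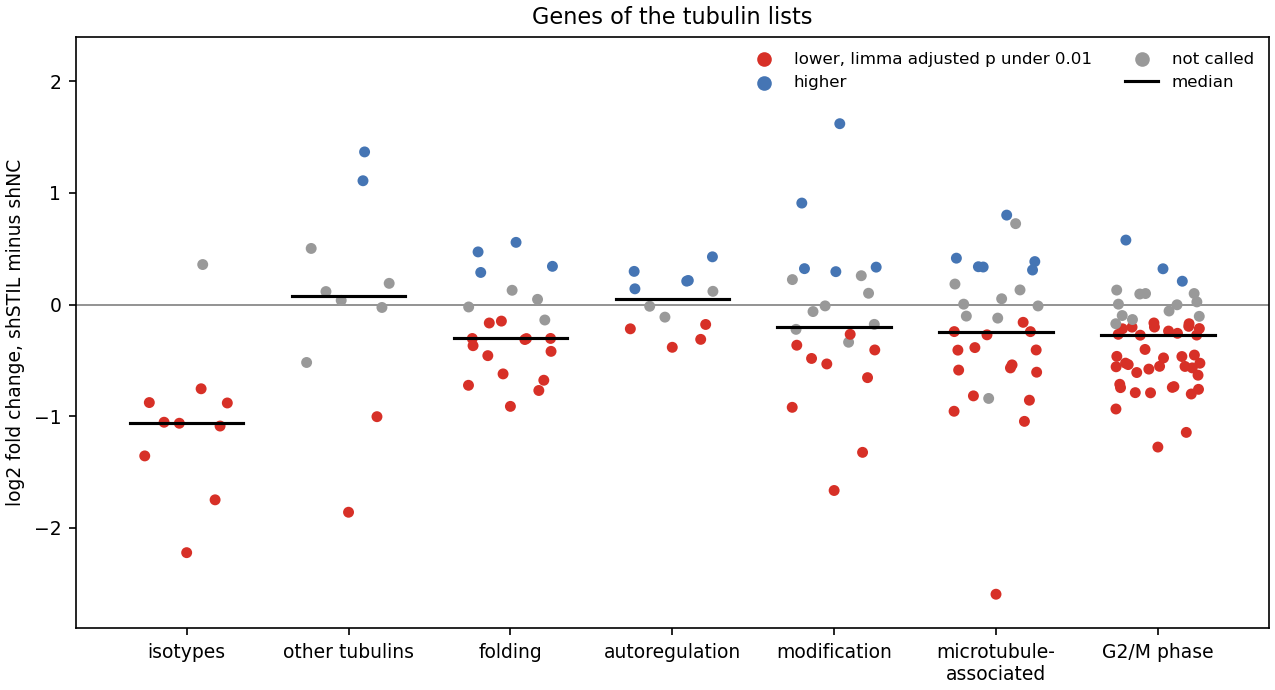
Log2 fold change of shSTIL against shNC (y axis) for each gene (point) of the tubulin lists and the G2/M list, coloured by the limma call at an adjusted p under 0.01, with a line at each median. The isotypes have a median of -1.06, the folding list -0.30 and the autoregulation list 0.05.

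Genes of the G2/M phase, listed without TUBB4B, were lower more often than higher. Of 53, 38 were lower and 3 higher, against 23.6% and 23.5% of all genes, with a median log2 fold change of -0.27, and their sum was 9230.4 ± 137 CPM in shNC and 6939.8 ± 65.5 CPM in shSTIL libraries, with TOP2A the most abundant. The sums of the epithelial and of the mesenchymal markers given above were also lower in each shSTIL library than in each shNC library. By gene, 1 epithelial marker was lower, 1 higher and 3 not called, and 2 mesenchymal markers were lower and 2 not called. The part of these genes in the result was not tested.

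The genes most like TUBA1A over the 6 libraries were LDHA, PRDX1, RRM2, ID1 and VAV3. Likeness was the root mean square difference in log2 CPM after the control mean of each gene was subtracted, over the 9942 genes whose mean log2 CPM was 3 or more. It was 0.03 for LDHA, 0.09 for PRDX1, 0.11 for RRM2, 0.11 for ID1 and 0.16 for VAV3. Among the tubulin isotypes, TUBB4A came at place 15 (0.29), TUBB3 at place 18 (0.34) and TUBA1B at place 72 (0.61). As the libraries of a group differ little, this measure mostly ranks genes by how near their log2 fold change is to that of TUBA1A.

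The promoter of TUBB2A is shown, because among the 10 it is only there that the 250 bases before the RefSeq start hold no exon of the gene's coding transcripts in GENCODE 29. All 10 isotypes matched an entry. The window is chr6:3157545-3157794 (GRCh38.p14, minus strand), and the capitals mark matches to GGGCGG, to TATAAA and to TGACGTCA on either strand.
TUBB2A: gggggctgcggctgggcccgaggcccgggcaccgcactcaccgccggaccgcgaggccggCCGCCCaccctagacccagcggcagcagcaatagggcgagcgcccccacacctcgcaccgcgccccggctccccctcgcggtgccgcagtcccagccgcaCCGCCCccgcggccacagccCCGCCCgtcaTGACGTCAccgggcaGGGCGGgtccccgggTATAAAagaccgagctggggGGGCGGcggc

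TUBB2A had 5 matches to GGGCGG, 1 to TATAAA and 1 to TGACGTCA in this window. Over the 10 isotypes, 8 held GGGCGG, 7 CCAAT, 2 TTTGAA, 1 TATAAA and 1 TGACGTCA, both strands read. Of 35116 promoters of the same length, 42.6% held GGGCGG, 32.0% CCAAT, 13.3% TTTGAA, 10.7% TATAAA and 1.65% TGACGTCA. The windows of the other 9 isotypes hold between 2 (TUBA1B) and 244 (TUBA1A) bases of exons of the gene's own coding transcripts, so these counts are not of sequence before the gene alone. A match is a description, not a site.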

How the data were processed

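RNA-seq libraries of EJ cells (3 shNC, 3 shSTIL, grouped by the sample labels) were analysed from the deposited tables. Per the study's methods and processing notes, the authors mapped reads with Bowtie2, estimated expected counts with RSEM and also named limma and hg38. The deposited log2 CPM cover 15953 genes in 6 libraries, and the deposited expected counts cover 4 of these (1 shNC, 3 shSTIL). Reads of all 6 were recovered from the spacing of the log2 CPM values (prior count 2). 87.5% to 87.9% came out whole within 0.01, and CPM given here use edgeR's TMM-scaled library sizes.

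The groups were compared on the deposited log2 CPM with limma 3.58.1 (R 4.3.3, mean-variance trend, Benjamini-Hochberg adjustment over all genes, adjusted p under 0.01). edgeR 4.0.16 and DESeq2 1.42.0 were run on the recovered reads, rounded to whole numbers, as alternatives. On simulated libraries the limma fit over all genes estimated fold changes well. It missed more changed genes there than the filtered limma fit, edgeR or DESeq2, and its false calls lay below a mean log2 CPM of 1. Far fewer genes changed in the simulation than were called in the data, so it does not rank these fits on the data. In the real data the fit called more genes than the filtered limma fit or DESeq2, and fewer than edgeR. Of its 7509 calls, 507 lie below a mean log2 CPM of 1, among 4634 genes. The fit was kept as planned, and the counts from the other fits are given with the alternatives.

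Members and lists were chosen with earlier results of these data known. Genes described with their statistics in the report are the isotypes, STIL, TTC5, TUBG1, up to 2 largest rises and 2 largest falls of each tubulin list among called genes whose groups do not overlap and whose mean log2 CPM is 3 or more, and the 5 genes most like TUBA1A. Markers are named by level or as the most abundant of their list. TUBB1 is named as the only other gene called among those with the alpha or the beta opening. MAP1A, VASH2 and TTLL11 are named as the largest changes of their lists, at a mean log2 CPM under 3. MC1R and LDHA are named in the closing section after their values were seen.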

Additional observations from a re-analysis of the deposited data

How the results depend on the processing

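The isotypes kept their directions under all 14 other fits, which comprise no trend, other scalings, a filter, another prior count, edgeR, DESeq2, a replicate block and each library left out. In each of these, 9 isotypes were called lower and TUBB2B was not called. Over all genes tested, between 2500 (without shSTIL replicate 3, of 15953) and 3943 (edgeR, of 15953) were called lower. The family was chosen from this contrast and the fits reuse the same libraries, so nothing is read from these counts. The log2 fold change of TUBA1A lay between -2.26 and -2.20 and that of STIL between -2.01 and -1.96. Quantile normalization gave TUBA1B -1.23, TUBA1C -0.84 and TUBB -1.13, each moved by more than 1 SD. Shares counted by reads instead of reads per length moved by more than 1 SD for every isotype in both groups, except TUBA1A in shSTIL (4.56%). The number of genes averaging 10 log2 CPM or more that fell by 1 or more on the log2 scale, 9, was 14 with the cut on the shNC mean and 4 with it on the shSTIL mean. The number of differentially expressed genes was 7509, with 7831 by edgeR, 6781 by DESeq2, 7448 with the filter and 5855 with no trend. Leaving out 1 library gave 4900 (without shSTIL replicate 3) to 5638. The folding list, 18 calls, gave 11 (without shSTIL replicate 3) to 16. The autoregulation list, 9 calls, gave 3 with no trend and, with any 1 of the 6 libraries left out, 2 (without shNC replicate 3) to 5. With fewer libraries fewer genes pass the threshold.

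Same-numbered libraries did not deviate together (correlations -0.12, -0.06 and -0.11 over 11319 genes), so the numbers do not pair them. The fit with replicate number as a block gave 6898 calls.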

Other observations

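Large falls among abundant genes were not limited to tubulin. Of 87 genes whose log2 CPM averaged 10 or more over the 6 libraries, 9 fell by 1 or more on the log2 scale, TUBA1B and TUBB among them, and LDHA had the largest fall. In this set 1 gene rose by as much, and over all genes 3.33% fell and 3.23% rose by this amount. The balance depends on the group the cut is set on: 14 of 92 fell and 0 rose with the cut on the shNC mean, but 4 of 79 fell and 4 rose with it on the shSTIL mean, so no excess of falls among abundant genes is read from it. These genes were chosen after their values were seen.

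MC1R, the gene next to TUBB3 that is known to form read-through transcripts with it, moved the other way and was also chosen after its values were seen. Its log2 CPM was 3.58, 3.54 and 3.54 in the shNC libraries and 4.62, 4.67 and 4.62 in the shSTIL libraries, a rise of 1.08 on the log2 scale (limma, SE 0.07, adjusted p = 1.5e-08). Reads shared by read-through transcripts could not be told apart.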
